A study of Homo sapiens with 16 samples.

Results

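The genes described here encode enzymes of fatty acid synthesis and desaturation, measured by RNA sequencing in 2 human colorectal cancer cell lines given itraconazole. Of 10 genes listed by symbol, 9 were matched to the 54127 Ensembl identifiers of the count tables: ACLY, ACSS2, FASN, SCD, ELOVL6, FADS1, FADS2, ME1 and LPIN1. ACACA was not analysed here. HT55 and SW948 cells were grown as adherent cultures with fetal bovine serum and received itraconazole, an azole antifungal, at 5 µM or its solvent DMSO for 6 days. Each of the 4 groups (HT55 DMSO, HT55 itraconazole, SW948 DMSO, SW948 itraconazole) held 4 libraries, which the study's methods describe as biological replicates. Each line is 1 established line, so a difference between lines is one between these 2 lines, and p-values measure the spread between cultures of 1 line.

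Cells build saturated fatty acids in the cytosol from acetyl-CoA, with reducing power from NADPH, and then lengthen them, place double bonds in them and join them to glycerol. The transcription factor SREBP1, made from SREBF1, is the textbook activator of these enzymes, and its relative SREBP2, made from SREBF2, is that of cholesterol synthesis. Both are held in the endoplasmic reticulum by SCAP and the INSIG proteins when sterols are plentiful, and many carcinomas, those of the colon included, make fatty acids actively.

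The region before the start site is where such factors bind, so upstream sequence is shown for the 3 genes that had a CCAAT before a start site, SCD, ACLY and ACSS2, and for ELOVL6, the gene that fell, which had none. These 4 do not stand for all the genes: ME1, LPIN1 and FADS2 also rose in both lines and had no CCAAT in the 250 bases before any of their starts, and neither had FADS1. Of the 2 ACSS2 windows the first is shown, and the second held no CCAAT. RefSeq windows of 300 bases (GRCh38.p14), running from 250 bases before to 50 after an annotated start, were given for 8 of the 9 genes, as 13 windows. None was given for FASN. The 250 bases before the start are printed 5′ to 3′ on the strand of the gene, with each CCAAT, the box bound by NF-Y, in capitals on either strand (ATTGG on the other). The SCD stretch is chr10:100346983-100347232 (plus strand), that of ACLY chr17:41919023-41919272 (minus strand), that of ACSS2 chr20:34874739-34874988 (plus strand) and that of ELOVL6 chr4:110198616-110198865 (minus strand).
SCD: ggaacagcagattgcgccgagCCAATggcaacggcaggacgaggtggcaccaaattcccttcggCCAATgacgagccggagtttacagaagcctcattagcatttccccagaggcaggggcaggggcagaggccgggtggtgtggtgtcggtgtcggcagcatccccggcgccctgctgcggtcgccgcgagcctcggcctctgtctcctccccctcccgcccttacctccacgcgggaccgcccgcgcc
ACLY: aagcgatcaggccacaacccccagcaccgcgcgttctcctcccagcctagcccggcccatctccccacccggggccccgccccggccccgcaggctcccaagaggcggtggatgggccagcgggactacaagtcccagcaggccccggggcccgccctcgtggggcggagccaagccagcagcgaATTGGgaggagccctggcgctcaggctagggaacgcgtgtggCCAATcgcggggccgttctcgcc
ACSS2: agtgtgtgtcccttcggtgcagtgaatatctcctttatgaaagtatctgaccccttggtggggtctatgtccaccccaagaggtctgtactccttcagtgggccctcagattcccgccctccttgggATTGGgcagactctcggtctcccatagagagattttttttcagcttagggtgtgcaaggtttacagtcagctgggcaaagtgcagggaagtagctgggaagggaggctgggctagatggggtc
ELOVL6: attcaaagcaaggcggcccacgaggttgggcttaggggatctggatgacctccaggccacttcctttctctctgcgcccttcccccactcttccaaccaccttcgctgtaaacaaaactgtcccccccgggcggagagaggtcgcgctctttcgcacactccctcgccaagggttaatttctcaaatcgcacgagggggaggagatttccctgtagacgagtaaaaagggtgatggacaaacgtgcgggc

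In the whole windows, CCAAT was found in 5 of the 13 windows, which belong to 4 of the 8 genes: ACLY, ACSS2, SCD and FADS2. It was found in 34.6% of all 35116 windows of the table, a share per window and not per gene. The 2 ACLY windows overlap and hold the same 2 boxes, and the 2 FADS2 windows overlap too, so the 13 windows are not separate sequences. The SCD window held it at positions -229 and -186 from the start, and the first ACLY window at -65 and -23. The Sp1 box GGGCGG was found in windows of all 8 genes, in 11 of 13 windows, against 45% of all windows. The sterol regulatory element TCACNCCAC, the E-box CACGTG and the LXR element (AGGTCA repeated in the same direction after any 4 bases) were in 0 of the 13 windows, against 1.13%, 7.26% and 0.0199% of all windows. Both strands were searched. FADS2 has 2 windows and the CCAAT lies in 1 of them, at position 6 after the start.

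Gene counts per library ran from 8269406 to 11110814. All 12 colorectal epithelial markers were detected in every group, led by KRT8, CEACAM5 or EPCAM. Their summed level was 11233 to 11482 CPM (gene counts scaled to library size) in HT55 DMSO and 12878 to 16225 in HT55 itraconazole, and 7032 to 7350 CPM in SW948 DMSO and 9964 to 12927 in SW948 itraconazole. The sum was higher with treatment in both lines, but its members were mixed: HT55 had 6 rises, 1 fall and 5 that did not pass, and SW948 had 7 rises and 5 falls (edgeR). Their part in the results below was not tested. The 8 fibroblast markers summed to at most 12.1 CPM in any library. They moved with treatment too, from 1.52 to 2.37 CPM in HT55 DMSO to 3.43 to 4.10 CPM in HT55 itraconazole, and from 2.62 to 4.86 CPM in SW948 DMSO to 9.95 to 12.1 CPM in SW948 itraconazole, led by PDGFRB and COL1A1. Immune, endothelial and adipocyte or hepatocyte marker lists stayed under 1 CPM in every library. These are bulk samples, in which fewer cells of a type and less RNA per cell cannot be told apart. Treated HT55 replicate 3 stood apart from its group. It was the highest of the treated HT55 libraries for FADS1 and FADS2. Of genes named below, it was the lowest of them for HMGCS1, MSMO1, IDI1, INSIG1 and TKT, among others. Without it 7911 genes changed in HT55 by edgeR in place of 6553. Treated SW948 replicate 1 also differed from replicates 2 and 3 (chi-square per degree of freedom 14.8 and 21.5). Between those replicates it was 3.76, and between replicates 1 and 4 it was 5.93. Without treated SW948 replicate 1, 10294 genes changed in SW948 by edgeR in place of 10030. No batch is named in the labels, and so values within batches could not be given.

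The summed counts of the 9 genes made up 0.207% ± 0.0081 (SD, n = 4) of all gene counts in HT55 DMSO and 0.335% ± 0.027 in HT55 itraconazole. In SW948 the share went from 0.105% ± 0.0091 to 0.292% ± 0.0081. The treated libraries lay above the controls in both lines, with no overlap. SW948 began with a smaller share than HT55, and its treated libraries (0.284% to 0.303%) lay just below those of HT55 (0.304% to 0.367%).

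Within each line, itraconazole was compared with DMSO across all genes by the quasi-likelihood test of edgeR, with p-values adjusted over every gene tested. In HT55, 7 of the 9 genes rose, 1 fell (ELOVL6) and 1 did not pass (FADS1). Across all 12133 genes tested in HT55, 27.5% rose and 26.5% fell. In SW948, 8 rose and 1 fell (ELOVL6), where 38.9% of 12505 genes rose and 41.3% fell. The median log2 fold change of the 9 was 0.69 in HT55 and 1.56 in SW948, and that of all tested genes was -0.02 in both lines.

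In HT55 all 4 treated libraries lay above all 4 controls for 8 of the genes, which 24.9% of tested genes did, and below them for ELOVL6, which 24.6% did. In SW948 the treated libraries lay above the controls for the same 8 genes, against 35.8% of tested genes. They lay below the controls for none of the 9, against 38.6%, since ELOVL6 overlapped. A rise of at least 1 on the log2 scale was called for FASN, FADS2 and ME1 in HT55, against 5.31% of tested genes, and for ACSS2, FASN, SCD, FADS1, FADS2 and ME1 in SW948, against 13.3%.

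**Figure D1:**
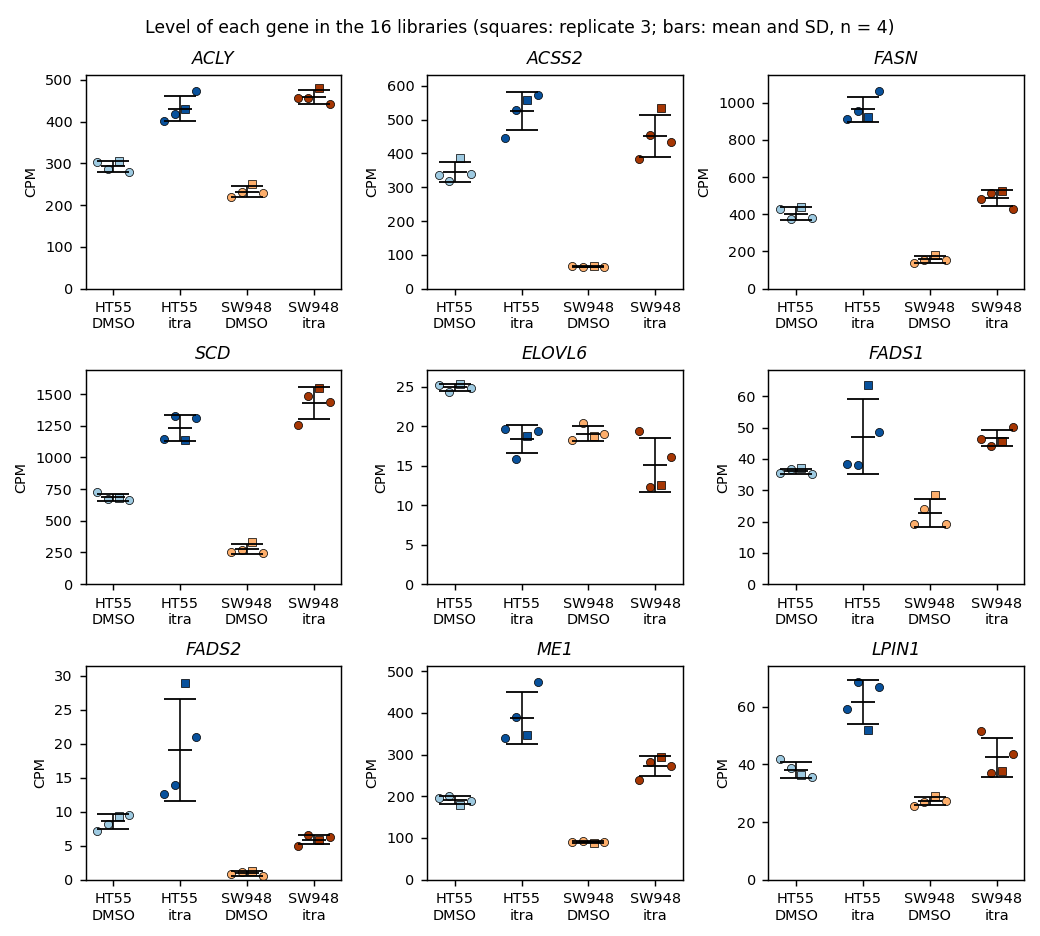
Level of each of the 9 genes in CPM (vertical axis, from 0) in the 4 libraries of each group, with the mean and SD (n = 4). Treated libraries lie above the controls of their line for every gene except ELOVL6, and the squares mark replicate 3, which is the highest treated HT55 library for FADS1 and FADS2.

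Acetyl-CoA for fatty acids comes from citrate through ATP citrate lyase (ACLY, chromosome 17, 40023170 to 40086795, minus strand, GRCh37, as for all genes below) and from acetate through ACSS2 (chromosome 20, 33459949 to 33515765, plus strand). ACLY was at 304, 286, 305 and 279 CPM in the HT55 DMSO libraries and at 402, 419, 431 and 472 CPM in the HT55 itraconazole libraries. In SW948 it was at 219, 230.4, 251 and 229 CPM with DMSO and at 456, 457, 480.0 and 442 CPM with itraconazole. The groups did not overlap in either line, and ACLY varied little among replicates. It rose by 0.55 ± 0.07 in HT55 (log2 fold change ± SE, edgeR adjusted p = 1.06e-04) and by 0.95 ± 0.06 in SW948 (edgeR adjusted p = 7.10e-09), the latter 0.62 on plain library totals, without a normalization factor.

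ACSS2 was the gene whose response differed most between the lines. Its level was 336, 318, 387 and 339 CPM in HT55 DMSO and 446, 529, 558 and 573 CPM in HT55 itraconazole. In SW948 DMSO it was only 66.9, 63.4, 67.8 and 62.8 CPM, and 383, 455, 535 and 433 CPM in SW948 itraconazole. The SW948 controls were thus the low group, and the treated SW948 libraries reached the range of the HT55 libraries. The log2 fold change was 0.61 ± 0.09 (SE, edgeR adjusted p = 3.83e-04) in HT55 and 2.76 ± 0.10 (SE, edgeR adjusted p = 3.39e-11) in SW948, a 1.52-fold and a 6.76-fold rise.

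FASN (chromosome 17, 80036214 to 80056170, minus strand) encodes fatty acid synthase, the multidomain enzyme that builds palmitate. Its libraries were at 427, 372, 436 and 379 CPM in HT55 DMSO and at 914, 956, 922 and 1061 CPM in HT55 itraconazole. In SW948 they were at 140.0, 154, 183 and 152 CPM with DMSO and 480.3, 512, 527 and 429.6 CPM with itraconazole. The lowest treated library lay well above the highest control in each line. FASN had the largest fold of the 9 genes in HT55, 2.38 (log2 fold change 1.25 ± 0.08, SE, edgeR adjusted p = 3.35e-06), and rose 3.03-fold in SW948 (1.60 ± 0.09, edgeR adjusted p = 1.42e-09).

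ME1 (chromosome 6, 83920121 to 84140770, minus strand) encodes the cytosolic malic enzyme, which yields NADPH. It was at 195, 201, 179 and 189 CPM in HT55 DMSO and at 339, 390.5, 347 and 474 CPM in HT55 itraconazole. In SW948 it was at 90.6, 92.8, 87.5 and 90.3 CPM with DMSO and at 239, 283, 294 and 272 CPM with itraconazole. The controls were tight and the treated libraries were spread more widely, without overlap. ME1 rose by 1.02 ± 0.10 in HT55 (log2, SE, edgeR adjusted p = 3.43e-05) and by 1.56 ± 0.07 in SW948 (edgeR adjusted p = 2.85e-10).

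SCD (chromosome 10, 102106990 to 102124583, plus strand) encodes stearoyl-CoA desaturase, which places the first double bond in saturated fatty acids. It was the most abundant of the 9 genes, at 725, 674, 677 and 662 CPM in HT55 DMSO and 1144, 1323, 1141 and 1314 CPM in HT55 itraconazole. In SW948 the controls were at 253, 271, 331 and 249 CPM and the treated libraries at 1254, 1483, 1549 and 1439 CPM. The SW948 controls were low and the treated libraries of both lines were high, with no overlap within a line. The rise was 1.79-fold in HT55 (log2 fold change 0.84 ± 0.07, SE, edgeR adjusted p = 1.57e-05) and 5.07-fold in SW948 (2.34 ± 0.10, edgeR adjusted p = 1.44e-10).

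FADS1 and FADS2, on chromosome 11, encode the delta-5 and delta-6 desaturases of polyunsaturated fatty acids. The genes lie on opposite strands (FADS1 at 61567099 to 61596790, minus; FADS2 at 61560452 to 61634826, plus) and share 490 exon bases in the annotation. Whether the counting used strand is not given in the sources used here, so reads in the shared bases cannot be assigned with certainty to either gene.

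FADS2 was the least abundant of the 9, at 7.15, 8.24, 9.34 and 9.49 CPM in HT55 DMSO and 12.6, 13.9, 28.8 and 21.0 CPM in HT55 itraconazole. In SW948 DMSO it was at 0.803, 1.14, 1.30 and 0.540 CPM, 44 counts in all 4 libraries together, and in SW948 itraconazole at 4.91, 6.58, 5.85 and 6.22 CPM (201 counts). The groups did not overlap in either line, and replicate 3 was the highest treated library in HT55. The log2 fold change was 1.16 ± 0.25 (SE, edgeR adjusted p = 0.00295) in HT55 and 2.61 ± 0.23 (SE, edgeR adjusted p = 1.52e-07) in SW948. Without treated HT55 replicate 3 the HT55 value was 0.89 (edgeR adjusted p = 5.86e-04).

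FADS1 was at 35.6, 36.6, 36.9 and 35.2 CPM in HT55 DMSO and at 38.2, 37.9, 63.5 and 48.7 CPM in HT55 itraconazole. In SW948 it was at 19.3, 23.9, 28.6 and 19.3 CPM with DMSO and at 46.5, 44.1, 45.6 and 50.3 CPM with itraconazole. In HT55 the treated libraries were spread from just above the controls to replicate 3 at the top, and in SW948 the groups were well apart. FADS1 rose in SW948 (log2 fold change 1.01 ± 0.11, SE, edgeR adjusted p = 1.67e-06). In HT55 the value was 0.38 ± 0.15 (95% confidence interval 0.05 to 0.72, edgeR adjusted p = 0.0521) and 0.21 without treated replicate 3, which did not pass either. The HT55 value passed the threshold with DESeq2 size factors (edgeR adjusted p = 0.0447), among other settings.

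ELOVL6 (chromosome 4, 110967002 to 111120355, minus strand), the elongase that lengthens palmitate to stearate, went the other way. It was at 25.2, 24.4, 25.4 and 24.8 CPM in HT55 DMSO and at 19.6, 15.8, 18.8 and 19.4 CPM in HT55 itraconazole. In SW948 it was at 18.2, 20.3, 18.8 and 19.0 CPM with DMSO and at 19.4, 12.3, 12.6 and 16.2 CPM with itraconazole. All treated libraries were low in HT55, whereas in SW948 treated replicate 1 lay among the controls. ELOVL6 fell by 0.44 ± 0.09 on the log2 scale in HT55 (SE, edgeR adjusted p = 0.00243) and by 0.35 ± 0.13 in SW948 (SE, edgeR adjusted p = 0.0245). The SW948 call was lost without control replicate 2 (-0.33, edgeR adjusted p = 0.0635), treated replicate 2 (-0.26, edgeR adjusted p = 0.0875) or treated replicate 3 (-0.27, edgeR adjusted p = 0.0650). On plain library totals the SW948 value was larger, -0.68 (edgeR adjusted p = 0.00119).

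LPIN1 (chromosome 2, 11817721 to 11967535, plus strand) encodes lipin 1, a phosphatidate phosphatase that makes the diacylglycerol from which triglycerides are built. It was at 41.7, 38.6, 36.2 and 35.6 CPM in HT55 DMSO and at 59.3, 68.6, 52.1 and 66.7 CPM in HT55 itraconazole. In SW948 it was at 25.5, 27.0, 28.9 and 27.3 CPM with DMSO and at 51.6, 37.2, 37.5 and 43.7 CPM with itraconazole. The treated libraries were above the controls in both lines. LPIN1 rose by 0.69 ± 0.10 in HT55 (log2, SE, edgeR adjusted p = 2.55e-04) and by 0.62 ± 0.10 in SW948 (edgeR adjusted p = 7.31e-05). On plain library totals the SW948 value was 0.29 (edgeR adjusted p = 0.0459).

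**Figure D2:**
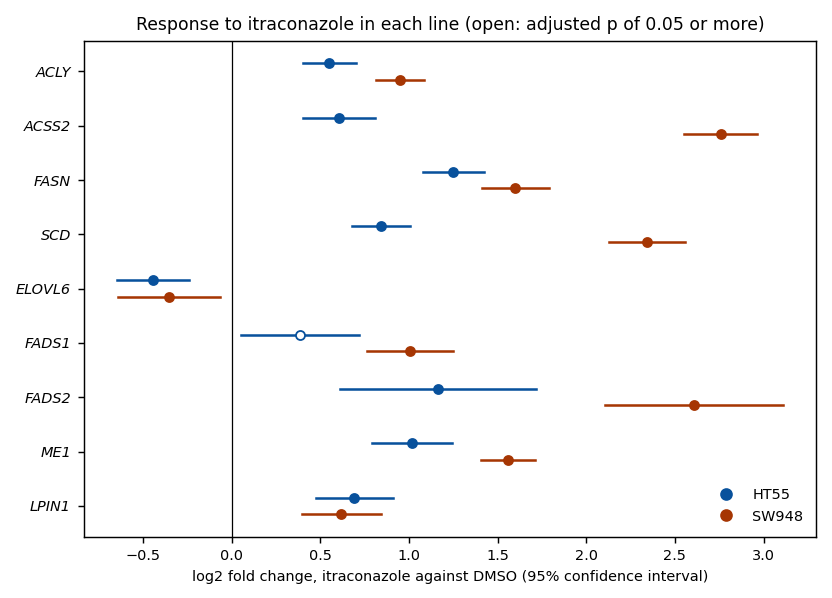
Log2 fold change of each gene with itraconazole against DMSO (horizontal axis) in HT55 (blue) and SW948 (brown), with 95% confidence intervals from the edgeR fit of each line. Filled points have an adjusted p under 0.05, and FADS1 in HT55 is the open point, at 0.38.

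Whether the lines differed in their response was tested directly, as the interaction of line and treatment over all 16 libraries. The response was larger in SW948 for 7 of the 9 genes, against 24.8% of the 13249 genes tested, and smaller for 0, against 29.1%. The difference was 2.18 ± 0.14 for ACSS2 (log2, SE, edgeR adjusted p = 1.00e-09) and 1.53 ± 0.13 for SCD (edgeR adjusted p = 2.66e-08). It was 1.47 ± 0.40 for the sparse FADS2 (edgeR adjusted p = 0.00412), 0.65 ± 0.20 for FADS1 (edgeR adjusted p = 0.0103) and 0.57 ± 0.13 for ME1 (edgeR adjusted p = 9.52e-04). ACLY and FASN differed by 0.43 ± 0.09 (edgeR adjusted p = 6.79e-04) and 0.38 ± 0.12 (edgeR adjusted p = 0.0153).

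For ELOVL6 and LPIN1 no difference passed the test. The interval of the difference was -0.24 to 0.47 for ELOVL6 and -0.36 to 0.27 for LPIN1. On plain library totals the differences of FASN (0.18, edgeR adjusted p = 0.206) and FADS1 (0.45, edgeR adjusted p = 0.107) did not pass, and those of ACLY (0.23) and ME1 (0.38) were smaller but passed. That scaling moved the median interaction of all genes from -0.04 to -0.23.

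With DMSO alone, all 9 genes were lower in SW948 than in HT55, against 37.7% of the 13249 tested genes (38.2% were higher, 0 of the 9). The log2 difference, SW948 minus HT55, was -3.18 ± 0.31 for FADS2 (SE, edgeR adjusted p = 1.20e-08) and -2.40 ± 0.10 for ACSS2 (SE, edgeR adjusted p = 4.48e-14). It was -1.36 for FASN, -1.31 for SCD, -1.08 for ME1, -0.67 for FADS1, -0.49 for LPIN1, -0.39 for ELOVL6 and -0.34 for ACLY, each past the threshold in edgeR. On plain library totals, ELOVL6 (-0.19, edgeR adjusted p = 0.210) and ACLY (-0.14, edgeR adjusted p = 0.0670) did not pass, and LPIN1 was at -0.29.

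These line comparisons share their libraries with the treatment comparisons above. With itraconazole the lines lay closer together for most of the genes. SCD was higher in SW948 (0.22 ± 0.09, edgeR adjusted p = 0.0343), against 39.3% of tested genes, and 5 genes were lower, against 41.5%. The 5 were FADS2 (-1.71 ± 0.23, edgeR adjusted p = 9.33e-07), FASN (-0.98 ± 0.09, edgeR adjusted p = 3.29e-09), LPIN1 (-0.53), ME1 (-0.51) and ACSS2 (-0.22 ± 0.09, edgeR adjusted p = 0.0370). ACLY (0.09, interval -0.05 to 0.23), ELOVL6 (-0.27, interval -0.53 to -0.01, edgeR adjusted p = 0.0509) and FADS1 (-0.02, interval -0.31 to 0.27) did not pass. Leaving out 1 library undid the SCD call in 5 of 8 cases, with adjusted p between 0.0537 and 0.0952 in those, and the ACSS2 call in 6 of 8, with adjusted p between 0.0570 and 0.167. The ACSS2 call was also lost with DESeq2 size factors (edgeR adjusted p = 0.0719). ELOVL6 passed without SW948 treated replicate 1 (-0.41, edgeR adjusted p = 0.00242) or HT55 treated replicate 2 (-0.33, edgeR adjusted p = 0.0222), and was at -0.18 without SW948 treated replicate 2.

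**Figure D3:**
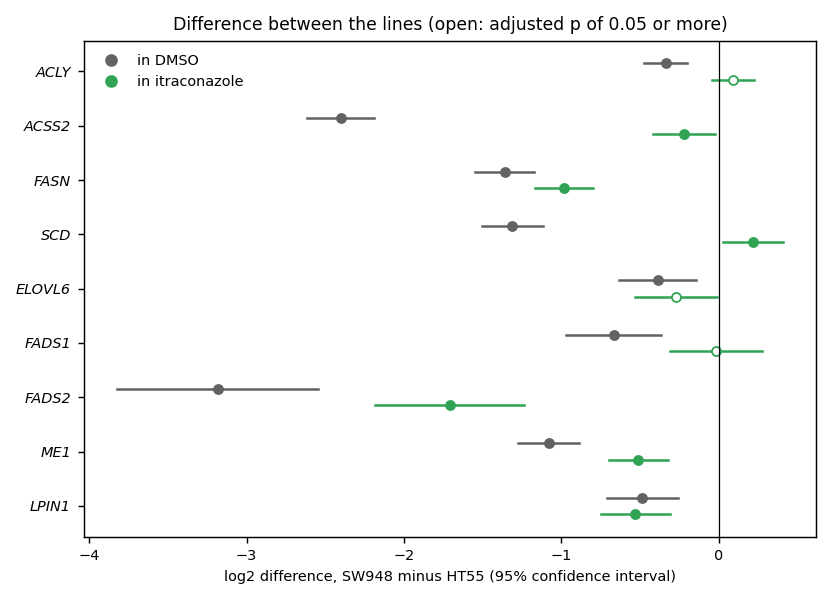
Log2 difference SW948 minus HT55 (horizontal axis) with DMSO (grey) and with itraconazole (green), with 95% confidence intervals from the fit over 16 libraries. All 9 grey points lie below 0, and the green point of ACSS2 lies at -0.22 against -2.40 in DMSO.

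The order of the 4 groups can be read from these values. For ACSS2, FASN, SCD, FADS1, FADS2, ME1, LPIN1 and ACLY, SW948 DMSO had the lowest mean. HT55 itraconazole had the highest mean for ACSS2, FASN, FADS1, FADS2, ME1 and LPIN1, and SW948 itraconazole had the highest for ACLY and SCD. The 2 treated groups overlapped for ACLY (402 to 472 CPM in HT55, 442 to 480.0 CPM in SW948), ACSS2, SCD, FADS1 and ELOVL6. They did not overlap for FASN, FADS2, ME1 and LPIN1, which stayed higher in HT55. The share of all genes whose treated groups did not overlap between the lines was not counted. By edgeR, 39.3% of the 13249 tested genes were higher in SW948 with itraconazole and 41.5% were lower, so such separation is not particular to these genes. ELOVL6 was highest in HT55 DMSO, at 24.9 ± 0.442 CPM (SD, n = 4), and lowest in SW948 itraconazole, at 15.1 ± 3.38 CPM.

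Levels of different genes were compared as RPKM, which divides by exon length. In HT55 DMSO, SCD stood at 130.5 ± 5.27 RPKM (SD, n = 4), followed by ACSS2 at 65.7, ME1 at 57.2, ACLY at 56.3 and FASN at 43.3. FADS1 at 3.53, ELOVL6 at 3.43, LPIN1 at 3.21 and FADS2 at 0.811 RPKM formed a low group. The same 5 genes were the high group in SW948 itraconazole, where SCD reached 273 ± 24.2 RPKM. In SW948 DMSO, ACSS2 was at 12.4 RPKM and ACLY at 44.7, and with itraconazole they were at 86.0 and 88.1 RPKM. With the length of the longest transcript in place of all exon bases, the HT55 DMSO values of ACSS2, LPIN1 and FADS1 became 118, 6.68 and 8.28 RPKM, so LPIN1 passed ELOVL6 (3.80) and ACLY (68.0) passed ME1.

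The make-up of the summed counts also changed, and these shares do not depend on scaling between libraries. SCD held 33.8% of the 9 genes' counts in HT55 DMSO and 33.4% in HT55 itraconazole, and in SW948 went from 30.9% to 44.5%. The SD over 4 libraries was at most 1.66 percentage points for any gene and group. ACSS2 went from 17.0% to 14.3% in HT55 and from 7.35% to 14.0% in SW948. FASN went from 19.9% to 26.2% in HT55 and from 17.6% to 15.2% in SW948. ACLY went from 14.5% to 11.7% in HT55 and from 26.1% to 14.3% in SW948. Such shares are not independent of each other.

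Across the 16 libraries, 8 of the genes followed the mean of the other members closely, with Pearson r between 0.868 (ACLY) and 0.970 (ME1). ELOVL6 had an r of -0.19. These are descriptions over libraries that share line and treatment, with no test.

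Relatives that act at the same steps were a list of 15 genes, of which 10 were tested in HT55 and 11 in SW948. In HT55, 2 rose, 3 fell and 5 did not pass, and in SW948, 4 rose, 4 fell and 3 did not pass. The shares of all tested genes were 27.5% rising and 26.5% falling in HT55, and 38.9% and 41.3% in SW948. Their median log2 fold change was -0.07 in HT55 and -0.04 in SW948. On plain library totals there were 2 rises and 4 falls in HT55, and 2 and 7 in SW948. ELOVL5, the elongase of polyunsaturated fatty acids, rose by 0.75 ± 0.10 in HT55 (SE, edgeR adjusted p = 1.81e-04) and by 2.48 ± 0.08 in SW948 (edgeR adjusted p = 2.89e-11). ELOVL7, an elongase of saturated fatty acids, rose in SW948 (1.11 ± 0.09, edgeR adjusted p = 6.60e-08). ELOVL1 was at 0.12 in both lines and did not pass, and on plain library totals it was at -0.04 in HT55, while in SW948 it fell (-0.22, edgeR adjusted p = 0.0171).

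ACACB, the mitochondria-associated acetyl-CoA carboxylase, fell by 0.69 ± 0.23 in HT55 (edgeR adjusted p = 0.0284) and by 0.88 ± 0.22 in SW948 (edgeR adjusted p = 0.00234), from mean levels of 4.61 and 5.51 CPM. ACSS1, the mitochondrial counterpart of ACSS2, fell by 0.66 ± 0.09 in HT55 and by 1.69 ± 0.16 in SW948 (with edgeR adjusted p = 1.75e-04 and 2.36e-07). LPIN2 rose in both lines (0.78 and 0.28), and its SW948 value was -0.04 on plain library totals. LPIN3 fell in both (-0.72 and -1.93). SCD5, a second stearoyl-CoA desaturase, was at 0.249 CPM in HT55 DMSO, where it was not tested, and rose in SW948 (0.79, edgeR adjusted p = 0.0106, but 0.46 and not past the threshold on plain library totals). FADS3 was at -0.36 in HT55 and -0.11 in SW948 and passed in neither line, though on plain library totals it did in SW948 (-0.44). ME2, the mitochondrial malic enzyme, fell in SW948 (-0.25, edgeR adjusted p = 0.00578) and was at -0.23 in HT55 (edgeR adjusted p = 0.155; on plain library totals -0.40 and 0.0114).

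Among 18 regulators, 17 were tested. In HT55, 9 rose, 2 fell and 6 did not pass, and in SW948, 7 rose, 7 fell and 3 did not pass. All tested genes gave 27.5% rises and 26.5% falls in HT55, and 38.9% and 41.3% in SW948. Their median was 0.22 in HT55 and 0.14 in SW948, the latter -0.19 on plain library totals, on which 4 rose and 3 fell in HT55. SREBF1 fell by 0.43 ± 0.06 in HT55 (edgeR adjusted p = 2.61e-04), from 206 to 154 CPM. In SW948 it rose by 0.49 ± 0.09 (edgeR adjusted p = 1.98e-04), from 62.2 to 89.5 CPM, though on plain library totals this was 0.16 (edgeR adjusted p = 0.114). The responses of SREBF1 differed between the lines by 0.95 ± 0.12 (edgeR adjusted p = 1.84e-06).

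SREBF2 rose in both lines, by 0.66 ± 0.09 in HT55 and 1.58 ± 0.09 (SW948; edgeR adjusted p = 2.17e-04 and 1.99e-09). INSIG1, which retains SCAP in the endoplasmic reticulum and is itself a sterol-responsive gene, rose by 1.83 ± 0.13 in HT55 and by 6.18 ± 0.22 in SW948 (with edgeR adjusted p = 5.89e-06 and 4.31e-11), the latter from 37.5 CPM. SCAP rose slightly in HT55 (0.24, edgeR adjusted p = 0.00880, but 0.07 and not past the threshold on plain library totals) and fell in SW948 (-0.56, edgeR adjusted p = 5.18e-06). MBTPS2, a protease that cleaves SREBPs, fell in SW948 (-1.88 ± 0.13, edgeR adjusted p = 7.88e-09) and was at -0.16 in HT55 (edgeR adjusted p = 0.204; on plain library totals -0.32 and 0.0213).

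The glucose-responsive factor ChREBP (MLXIPL) fell in HT55 (-0.73, edgeR adjusted p = 0.00219) and was at -0.02 in SW948 (edgeR adjusted p = 0.834), but fell there on plain library totals (-0.35). Its partner MLX rose in both lines (0.31 and 0.80), though not past the threshold in HT55 on plain library totals (0.15). NR1H3, which encodes LXR alpha, was at -0.08 in HT55 (edgeR adjusted p = 0.560) and fell in SW948 (-0.79, edgeR adjusted p = 2.94e-04). MID1IP1, a partner of acetyl-CoA carboxylase, was at 0.14 in HT55 (edgeR adjusted p = 0.449; on plain library totals -0.03) and rose in SW948 (0.58, edgeR adjusted p = 1.92e-04).

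Genes that supply citrate and NADPH were a list of 12, with 11 tested in HT55 and 12 in SW948. In HT55, 6 rose, 2 fell and 3 did not pass, and in SW948, 7 rose, 2 fell and 3 did not pass. For all tested genes the shares were 27.5% rising and 26.5% falling in HT55, and 38.9% and 41.3% in SW948. SLC25A1, which carries citrate out of mitochondria, rose by 0.62 ± 0.08 in HT55 and by 1.20 ± 0.11 in SW948 (with edgeR adjusted p = 1.51e-04 and 1.31e-07). TKT, a transketolase of the pentose phosphate pathway, rose by 1.45 ± 0.20 and 3.65 ± 0.14 (edgeR adjusted p = 2.38e-04 and 5.99e-11).

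The NADPH-forming enzymes of the cytosol did not move together. ALDH1L1 rose in SW948 (1.92) and was too low to test in HT55. PGD fell in HT55 (-0.30, edgeR adjusted p = 0.00463) and rose in SW948 (0.30, edgeR adjusted p = 9.11e-04), the latter at -0.03 on plain library totals. IDH1 rose in HT55 (0.58, edgeR adjusted p = 5.14e-05) and fell in SW948 (-0.53, edgeR adjusted p = 6.05e-06). The interaction of IDH1 was -1.08 ± 0.09 (edgeR adjusted p = 3.64e-08).

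Sterol synthesis and uptake, which SREBP2 is known to drive, was set beside it as a list of 22 genes. In each line 20 rose, 1 fell and 1 did not pass, with a median log2 fold change of 0.85 in HT55 and 2.56 in SW948. Of all tested genes, 27.5% rose in HT55 and 38.9% in SW948. On plain library totals 18 rose in each line, with 1 fall in HT55 and 2 in SW948. The medians there were 0.68 in HT55 and 2.22 in SW948, against 0.52 and 1.22 for the 9 fatty acid genes. The largest changes were those of MSMO1 (1.92 and 4.77), HMGCS1 (1.10 and 3.94), SQLE (1.62 and 3.87) and IDI1 (1.66 and 3.77), all enzymes of cholesterol synthesis. Treated HT55 replicate 3 was the lowest treated HT55 library for MSMO1 (189 CPM, the others 265 to 368) and HMGCS1 (98.7, the others 146 to 207). The same held for IDI1 (136, the others 175 to 242) but not for SQLE (190, against 181 in replicate 1). With TMM scaling the median of the 9 fatty acid genes was 0.69 and 1.56, and the difference between the 2 lists was not tested. The response was larger in SW948 for 18 of the 22, against 24.8% of all tested genes. The median interaction was 1.67, against a median of 0.57 for the 9 genes.

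**Figure D4:**
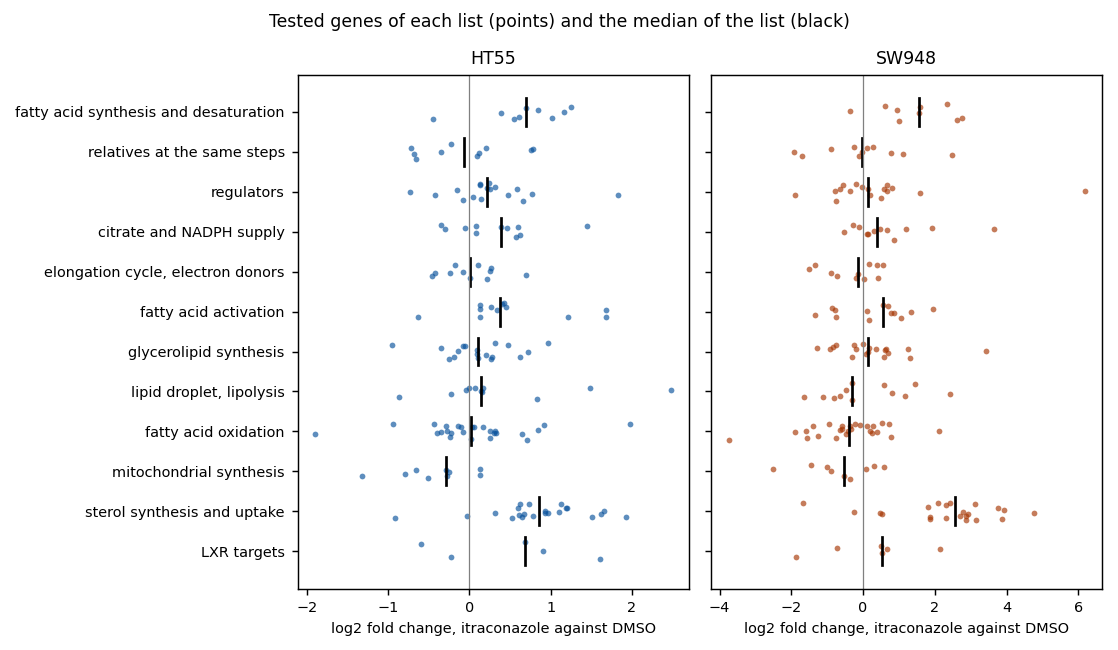
Log2 fold change with itraconazole against DMSO (horizontal axis) of the tested genes of each list in HT55 (left) and SW948 (right), as points, with the median of each list in black. The 9 genes have a median of 0.69 in HT55 and 1.56 in SW948, the sterol list 0.85 and 2.56, and the horizontal scales of the 2 panels differ.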

How the data were processed

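RNA was sequenced by the authors from HT55 and SW948 cells with DMSO or itraconazole (TruSeq libraries, single-end reads of 50 bp, aligned to hg19). Per the labels' processing notes, TopHat, HTSeq and DESeq were used, and the annotation release is not given in the sources used here. The deposited values are raw counts of reads per gene, 1 table per library, with no normalization. Reads with several alignments (22.0% to 27.9% of reads) were set apart by the authors, so genes with near-identical copies lose reads. In total 54127 identifiers were listed, of which 47098 had a symbol in GENCODE or in a table of gene names. Gene counts per library were 8269406 to 11110814, which leaves genes of a few counts imprecise. Reads carry no molecular identifiers.

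From the counts, edgeR 4.0.16 in R 4.3.3 (quasi-likelihood test, TMM, filterByExpr, Benjamini-Hochberg over all genes tested, called at an adjusted p under 0.05) was run on each line's 8 libraries for the treatment, and on all 16 for the interaction and the line differences. CPM used TMM-scaled totals of all 16 libraries and RPKM the union of exon bases of the GRCh37 annotation. Standard errors come from each fold change and its F value. Replicates differed beyond counting noise in all 24 pairs (chi-square per degree of freedom of at least 1.43), so each library was counted. Alternatives were DESeq2 1.42.0 (size factors and Wald test), plain library totals, other filters and thresholds, a replicate block, 1 fit on 16 libraries, removal of the 20 highest genes together with mitochondrial ones, leaving out each library and, for RPKM, the longest transcript.

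The genes, the 11 other lists and the 5 marker lists were chosen with earlier results of these data known. All 9 genes are named. Of each list, up to 4 genes with the largest absolute log2 fold change in either line are named, and a fixed set of relatives and regulators whatever their values; a few genes under these rules are not reported here. List counts under other scalings were added after seeing the data.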

Additional observations from a re-analysis of the deposited data

Results flagged for a closer look

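The response to itraconazole differed between the lines, by the interaction test of edgeR, for 7 of the 9 genes, each larger in SW948. Of all 13249 genes tested, 24.8% had a larger response in SW948 and 29.1% a smaller one. The log2 response in SW948 minus that in HT55 was 2.18 for ACSS2, 1.53 for SCD, 1.47 for FADS2, 0.65 for FADS1, 0.57 for ME1, 0.43 for ACLY and 0.38 for FASN. All 7 rose in SW948, and 6 of them rose in HT55, where FADS1 did not pass. FASN and FADS1 did not pass the interaction test on plain library totals.

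Within the 36 sets of 4 libraries (9 genes in 4 groups), no library stood farther from the others than Dixon's 95% critical value, where chance gives about 1.8 such sets.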

How the results depend on the processing

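The direction of all 9 treatment effects in each line held under every alternative. A minimum absolute log2 fold change of 1 left 3 genes that rose and 0 that fell in HT55, 0 that fell in SW948, 3 with a larger response in SW948, 5 lower in SW948 with DMSO, and 0 higher and 1 lower with itraconazole, since it asks for a larger change. An adjusted p under 0.01 left 0 genes that fell in SW948 and 0 that were higher in SW948 with itraconazole. At least 10 counts in every library removed FADS2, so it has no value there outside HT55, and left 3 genes lower in SW948 with itraconazole. Leaving out 1 library gave 0 to 1 genes that fell in SW948 and 0 to 1 higher in SW948 with itraconazole. Among the 9 genes, the sign turned only for values that had not passed. The interaction of ELOVL6 was -0.0727 on plain library totals and ran from -0.0327 to 0.20 over single libraries left out, and that of LPIN1 ran from -0.152 to 0.0135, above 0 without HT55 treated replicate 2 or SW948 treated replicate 2 or 3. FADS1 with itraconazole, SW948 against HT55, was 0.00713 with DESeq2 size factors, 0.00914 with the Wald test, 0.00891 with at least 10 counts and 0.0119 with the replicate block, and -0.11 to 0.17 over single libraries left out. The cause was not tested.

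FADS1 in HT55 passed with DESeq2 size factors, the Wald test (adjusted p = 0.0350), no filter (0.0243), 1 fit on 16 libraries (0.0265), without the genes with most counts (0.0498) and without treated replicate 1 (0.0253) or 2 (0.0166), all from edgeR or DESeq2. Same-numbered libraries of a line deviated together only weakly, with a mean r of 0.0324 in HT55 and 0.057 in SW948. For libraries of different number it was -0.0106 and -0.0185. The highest r in each line was that of replicate 3 with replicate 3 (0.145 in HT55 and 0.136 in SW948). These values cannot decide whether the numbers pair the samples, and the main tests did not pair them. With the replicate block FADS1 in HT55 passed (0.35, edgeR adjusted p = 0.0449), no other call changed, and 6300 genes in HT55 and 9973 in SW948 were called. Plain library totals moved the median of all genes to -0.18 in HT55 and -0.35 in SW948. There, regulators that rose in HT55 went from 9 to 4, elongation genes that rose from 3 to 1 in both lines, oxidation genes that rose from 8 to 4 in SW948, and relatives that rose from 4 to 2 in SW948. FADS2 in SW948 DMSO rests on 44 counts, which limits its precision.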

Other observations

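Steps around the pathway moved in mixed directions. Of 12 genes of the elongation cycle and its electron donors, 11 were tested: 3 rose, 1 fell and 7 did not pass in HT55 (1 rose and 3 fell on plain library totals), and 3 rose, 5 fell and 3 did not pass in SW948 (1 and 7). HACD2, a dehydratase of the elongation cycle, fell in both lines (-0.43 and -1.33), and CYB5R4, CYB5R1 and CYB5R2, cytochrome b5 reductases, fell in SW948 (-1.51, -0.88 and -0.71). Of 15 genes of fatty acid activation, HT55 had 6 rises and 1 fall among 12 tested, and SW948 had 7 and 4 among 13. ACSL4 (1.68 and 1.95) and ACSL1 (1.68 and 1.05), acyl-CoA synthetases, rose in both lines, and ACSL3 rose in SW948 (1.33) while SLC27A4 fell there (-1.35).

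Of 22 glycerolipid genes, HT55 had 8 rises and 3 falls among 18 tested (5 and 5 on plain library totals), and SW948 had 8 and 6 among 19 (6 and 8). AGPAT2, an acyltransferase, rose in both (0.26 and 1.31, the HT55 value not past the threshold on plain library totals), as did GPAT3 (0.97 and 1.26), and CDS2 fell in SW948 (-1.27). For GPAT3, treated HT55 replicate 3 was at 7.33 CPM, below all HT55 controls (9.26 to 10.3 CPM). PNPLA3 was at 0.184 CPM in SW948 DMSO and rose to 2.21. Of 16 lipid droplet and lipolysis genes, HT55 had 3 rises and 0 falls by edgeR among 11 tested, and SW948 had 5 and 5 among 12 (5 and 7 on plain library totals). MGLL, monoglyceride lipase, rose by 2.48 in HT55 and 1.16 in SW948. PLIN1 rose in SW948 (2.42) and CIDEC in HT55 (1.49), both under 5 CPM. G0S2 fell in SW948 (-1.66).

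Of 30 genes of fatty acid oxidation, 26 were tested in each line. HT55 had 9 rises and 7 falls (5 and 12 on plain library totals), and SW948 had 8 and 16 (4 and 18), with medians of 0.02 and -0.39. Beside this list and those below, 27.5% of all tested genes rose and 26.5% fell in HT55. In SW948 these shares were 38.9% and 41.3%. The peroxisomal oxidase ACOX2 fell in both lines (-1.90 and -3.74), from 34.8 CPM in HT55 and 3.92 CPM in SW948, and DECR1 (-0.94 and -1.58) and ACADM (-0.39 and -1.90) fell in both lines. PDK4, which restrains pyruvate use, rose by 1.97 and 2.10. CPT1A rose by 0.25 and 0.38, neither past the threshold on plain library totals. Mitochondrial fatty acid synthesis, a separate pathway of 10 genes, had 0 rises and 3 falls of 9 tested in HT55 by edgeR (6 falls on plain library totals), and 1 rise and 6 falls in SW948. LIPT2 (-0.66 and -2.50) and HSD17B8 (-1.32 and -1.46) fell in both lines, and MCAT (-0.99) and MECR (-0.90) in SW948. Of 8 LXR target genes, HT55 had 2 rises and 1 fall among 5 tested, and SW948 had 4 and 2 among 6 (1 and 2 on plain library totals). SMPDL3A (1.61 and 0.54) and MYLIP (0.90 and 0.51) rose, the SW948 values not past the threshold on plain library totals, LPCAT3 fell (-0.59 and -1.87), and APOE rose in SW948 (2.14).

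Among the genes whose log2 CPM over the 16 libraries was most like the mean profile of the 9, of 9205 genes compared, were HK1 (Pearson r = 0.991), TGFBR3 (0.987), CMIP (0.987) and ZBTB7A (0.984). HK1, a hexokinase, rose by 0.81 in HT55 and 1.95 in SW948. These r values were ranked over libraries that share line and treatment, and no test was made.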
